A study of Mus musculus with 40 samples.

Results

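The data described here are the small RNA libraries of 15 wild-type control mice at 6 months of age, out of 40 libraries in the series. They were selected by the titles of the samples and not by any measured value. These mice were littermates of CamKIIδC TG animals, in which the kinase CaMKIIδC is overexpressed and which serve as a model of heart failure. They did not carry the transgene and had a C57Bl/6J background, and each mouse gave 1 library from the CA1 region of the hippocampus. The sources used here name no treatment of them. In the paper, control mice of this age underwent echocardiography under isoflurane, Barnes maze training and an open field test. Whether the sequenced mice were among them is not stated there. The study used mice of both sexes, and the sex of each mouse was not given in the sources used here, so sexes were not separated. The question addressed is which miRNAs make up the baseline repertoire of this tissue, how their counts divide among families, genomic clusters and hairpin arms, and how far individual mice differ. No difference from transgenic mice was tested.

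A miRNA is cut from a hairpin in a longer transcript, first by Drosha in the nucleus and then by Dicer in the cytoplasm. Either arm of the hairpin, named 5p or 3p by its position, can be loaded into an Argonaute protein, while the other arm is usually degraded. The loaded strand finds its target mRNAs mainly through its seed, the bases 2 to 8 from the 5′ end, so miRNAs that share a seed can repress overlapping sets of mRNAs. Hairpins that lie close together are often made from 1 primary transcript. In the hippocampus, miRNAs of neurons are known to tune dendritic spines, synaptic strength and memory formation.

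The counts deposited by the authors cover 1978 mature miRNAs. Each was represented by 1 row, the one of the precursor with the highest total, and its level was expressed in CPM, the count scaled so that all miRNA counts of a library sum to 1000000. Values are means ± SD over 15 mice unless stated otherwise. The libraries held 2816478 to 23566241 counts in total, of which 2080504 to 15596315 were miRNA counts. In these libraries, 3 counts equal 0.192 to 1.44 CPM, a limit that covers counting error only.

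The sequences below are the mature forms, 5′ to 3′, of the miRNAs on which the composition turns, taken from the RefSeq table for GRCm38.p6, in which 1679 of 1978 names were matched. Capitals mark the seed. The first set shows the members that lead the largest seed families, each with a seed of its own.
miR-128-3p: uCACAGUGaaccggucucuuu
miR-99a-5p: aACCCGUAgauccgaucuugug
miR-127-3p: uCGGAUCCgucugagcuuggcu
miR-9-5p: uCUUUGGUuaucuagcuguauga
miR-148a-3p: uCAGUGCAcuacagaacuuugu
miR-26a-5p: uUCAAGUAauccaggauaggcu
miR-218-5p: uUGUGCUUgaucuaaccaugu
miR-7a-5p: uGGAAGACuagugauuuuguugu
miR-381-3p: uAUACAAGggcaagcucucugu

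The second set shows the 5 let-7 members among the 20 most abundant miRNAs, and miR-100-5p, because these differ from close relatives by only a few bases outside the seed.
let-7f-5p: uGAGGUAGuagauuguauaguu
let-7i-5p: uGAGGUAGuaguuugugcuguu
let-7g-5p: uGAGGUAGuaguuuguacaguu
let-7c-5p: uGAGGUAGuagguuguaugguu
let-7a-5p: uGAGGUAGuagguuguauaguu
miR-100-5p: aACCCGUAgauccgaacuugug

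Counted from 1 at the 5′ end, with the base of let-7f-5p first, let-7a-5p differed from let-7f-5p by 1 substitution, A12G, and let-7c-5p by A12G and A19G. In the same notation, let-7g-5p differed by A12U and U18C. miR-100-5p differed from miR-99a-5p by U16A alone. Levels of such near-identical members are uncertain where the counting could assign a read to either.

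Before the composition is described, 1 feature of these libraries has to be stated, because it touches most of the values below. Among the 195 miRNAs at or above a mean of 100 CPM, 83.9% of the variance of log2 levels between the mice lay on 1 axis, the first principal component. Mice 5 and 4 stood apart at one end of it, with scores of -2.06 and -1.77 SD. These were also the smallest libraries, with 2080504 and 3091291 miRNA counts. Mice 2, 1, 3 and 9 followed with scores between -0.80 and -0.45 SD, and the other 9 mice lay between 0.24 and 0.96 SD.

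The libraries also contained synthetic spike-in oligos, which are not made by the mouse and took up 0.116 to 0.252% of all counts. Among themselves, 22 of these oligos with a mean of at least 100 counts had 92.5% of their variance on a first axis of their own. The score of a mouse on the axis of the oligos followed its score on the axis of the miRNAs (Pearson's r = 0.985, permutation p = 1e-05, adjusted p = 4e-05; Spearman's rho = 0.971, permutation p = 1e-05), where 1e-05 is the smallest p that 100000 permutations can give. Without the mice farthest from the median, which were mice 4 and 5, r was 0.961. On a CPM scale of the spike-in counts alone, the oligo UniSp129 stood at 343 in mouse 5, 410 in mouse 4 and 9640 in mouse 10, whereas UniSp142 stood at 220246 in mouse 4 and 62479 in mouse 11.

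Because the scores of the mice left gaps along the axis, the relation was also computed on each side of 0 on the oligo axis. In the 9 mice above 0, r was 0.887 (exact permutation p = 4.13e-05, adjusted p = 0.000827 over 20 relations) and rho 0.983. In the 6 mice below 0, r was 0.938 (exact permutation p = 0.0375, adjusted p = 0.0938) and rho 0.600 (exact permutation p = 0.242). The miRNA axis also moved with log10 of the miRNA counts of the library (r = 0.785, permutation p = 0.00126, adjusted p = 0.00168 over 4 relations; rho = 0.568, permutation p = 0.0300), but r was 0.306 without mice 4 and 5, so that this relation rested on those mice. Across the 170 miRNAs with a sequence, the slope of the log2 level on the axis was related to base composition. Its median was 0.64 per SD for 38 miRNAs with a GC content of at most 40% and 0.02 for 63 miRNAs with at least 50%, and the correlation of slope and GC content across miRNAs, which are not independent replicates, was -0.456. The part of this axis in each result was not tested, and values without mice 4 and 5 are given beside several of them.

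**Figure D1:**
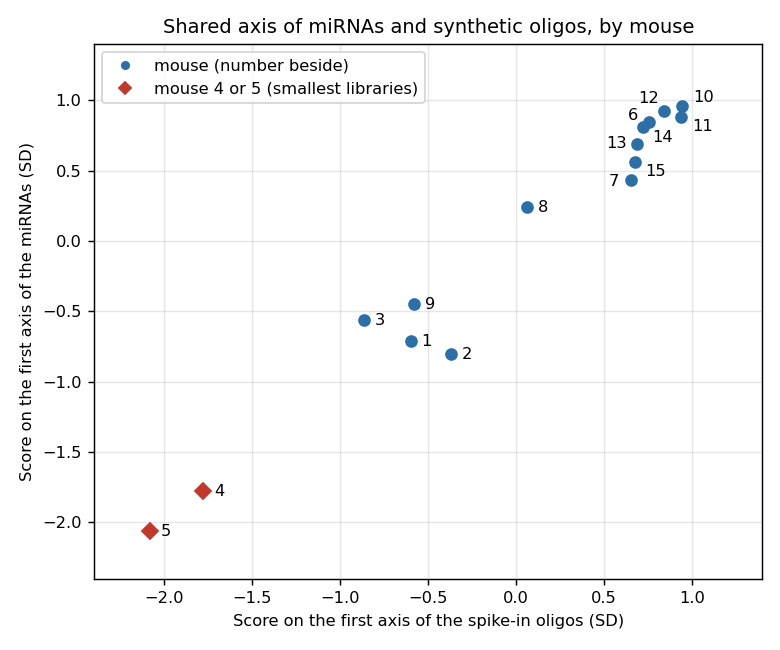
Score of each of 15 mice on the first axis of 195 miRNAs (vertical, in SD) against its score on the first axis of 22 spike-in oligos (horizontal, in SD). Red diamonds are mice 4 and 5, the smallest libraries, which lie at -1.77 and -2.06 SD on the miRNA axis, and the mice fall along a diagonal with r = 0.985.

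The repertoire was dominated by few miRNAs. A single one, miR-128-3p, which is enriched in neurons and known to restrain neuronal excitability, accounted for 16.7% ± 1.45 of all miRNA counts and was the most abundant miRNA in each of the 15 mice. In the mean composition, 6 miRNAs reached 50% of the counts, 46 reached 90% and 174 reached 99%. Between individual mice, the number needed for 50% ranged from 4 to 7 (median 6), and the number needed for 90% from 32 to 51 (median 47). The 20 most abundant miRNAs together held 74.2 to 81.9% (median 76.4%).

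The level of miR-128-3p was 167301 ± 14488 CPM, with a lowest value of 151356, a median of 167800 and a highest value of 191940. It exceeded the next miRNA in 15 of 15 mice, by 0.93 ± 0.24 on the log2 scale. The miRNA is listed on 2 precursors, Mir128-1 at chr1:128202361-128202430 in an intron of R3hdm1 and Mir128-2 at chr9:112118636-112118711 in an intron of Arpp21, both on the strand of the host gene. Coordinates here and below are of GRCm38, from GENCODE M21.

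The next 3 miRNAs were miR-99a-5p, miR-127-3p and miR-9-5p, and their order was not stable between mice. miR-99a-5p, which lies in an intron of the long noncoding RNA Mir99ahg on chromosome 16, had a level of 88617 ± 14416 CPM, from 68001 over a median of 89587 to 113546. miR-127-3p, an imprinted miRNA transcribed antisense to an exon of the retrotransposon-derived gene Rtl1, had a level of 84205 ± 29205 CPM. It ranged from 54578 over a median of 74339 to 140085, and its highest values, 140085 and 138846 CPM, were those of mice 4 and 5. Without these mice its mean was 75703 CPM. miR-9-5p, which governs neural progenitors and neuronal differentiation, had a level of 70069 ± 10252 CPM, from 40667 in mouse 5 over a median of 71683 to 84148 in mouse 10. miR-99a-5p exceeded miR-127-3p in 10 of 15 mice and miR-127-3p exceeded miR-9-5p in 7 of 15, so that the order of these neighbours did not hold beyond their spread.

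let-7f-5p followed with 51049 ± 7344 CPM and a range from 41917 to 61929. The let-7 family is known to keep cells differentiated and is abundant in mature brain. miR-148a-3p, which is found in many tissues and is known to repress the DNA methyltransferase Dnmt1, came next with 47743 CPM, but its SD of 35817 was the widest among the 20. Its levels were 134097 CPM in mouse 5, 111198 in mouse 4 and 85440 in mouse 3, with a lowest value of 16629 in mouse 7 and a median of 31794. Its rank accordingly ranged from 3 to 13, and its mean without mice 4 and 5 was 36219 CPM.

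miR-26a-5p, which lies within the phosphatase genes Ctdspl and Ctdsp2, showed the opposite order of mice. Its level was 37726 ± 14027 CPM, with 12679 in mouse 5, 14627 in mouse 4, a median of 45684 and a highest value of 54259 in mouse 11, and its mean was 41430 CPM without mice 4 and 5. It was higher than let-7i-5p in 9 of 15 mice. let-7i-5p (29782 ± 3528 CPM), let-7g-5p (28035 ± 4659 CPM) and let-7c-5p (26886 ± 4075 CPM) formed a close group, in which let-7i-5p exceeded let-7g-5p in 7 mice and let-7g-5p exceeded let-7c-5p in 9.

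Of the remaining miRNAs among the 20, several are known from neurons. miR-218-5p, from introns of the axon guidance genes Slit2 and Slit3, had 23912 ± 6657 CPM, and miR-7a-5p, which is bound by the circular RNA Cdr1as, had 18182 ± 3629 CPM. miR-129-5p, linked to neuronal excitability, had 11334 ± 5288 CPM, with its highest values in mice 4 and 5 (22615 and 20689) and a mean of 9746 CPM without them. The imprinted miRNAs miR-381-3p and miR-434-5p had 19761 ± 7686 and 8191 ± 1354 CPM. Beyond neurons, miR-30d-5p (17232 ± 3255 CPM), let-7a-5p (13591 ± 1851 CPM), miR-125b-5p (11379 ± 4990 CPM, 12552 without mice 4 and 5) and miR-29a-3p (8797 ± 3553 CPM) are broadly expressed. miR-126a-3p (8559 ± 2243 CPM) is the main miRNA of endothelial cells. Among the 20 neighbouring pairs in the order, only that of miR-128-3p and miR-99a-5p held in all 15 mice, and the others held in 6 to 13.

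**Figure D2:**
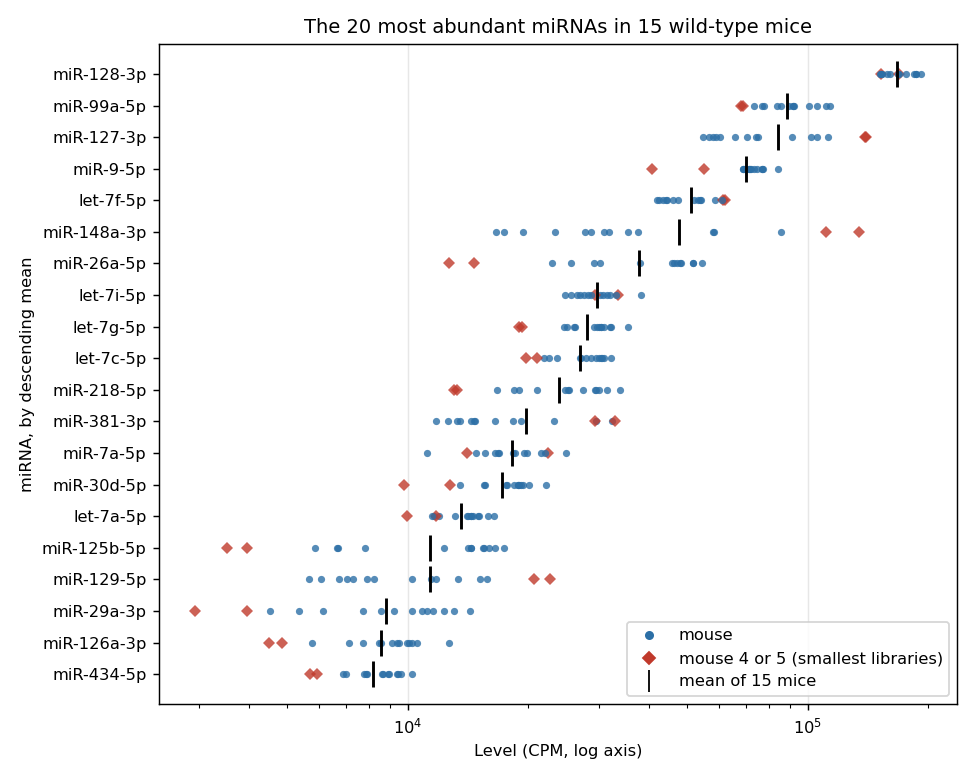
Levels of the 20 most abundant miRNAs in CPM on a log axis, with 1 point per mouse and a black bar at the mean of 15 mice. Red diamonds are mice 4 and 5, which lie at the top for miR-148a-3p and miR-127-3p, at the bottom for miR-26a-5p and miR-125b-5p, and within the other mice for miR-128-3p.

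Detection depended on the depth of the library. A mean of at least 1 CPM was reached by 606 miRNAs, at least 10 CPM by 366, at least 100 CPM by 195, at least 1000 CPM by 74 and at least 10000 CPM by 17. At least 10 counts in each of the 15 mice were found for 357 miRNAs, and 474 were at 0 in all of them. The number with at least 1 count ranged from 676 in mouse 5 to 1138 in mouse 6, the smallest and the largest library. At the depth of the smallest library, 676 to 817 miRNAs would be expected (median 801), a narrower range than at full depth. Mice 5 and 4 remained the lowest at that depth, with 676 and 678 against 739 to 817 in the others.

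Grouped by seed, 1679 miRNAs fell into 1398 families, and the 10 largest families held 74.1% of all miRNA counts. The 299 miRNAs with no matched sequence held 5.09% of the counts and are in no family. The families of miR-128-3p and of let-7 were nearly equal in size. The seed CACAGUG belonged to miR-128-3p alone, with 16.7% ± 1.45 of the counts. The let-7 seed GAGGUAG was shared by 11 miRNAs, 10 of them with a mean of at least 10 CPM, and held 16.4% ± 1.12, from 15.1 over a median of 16.4 to 18.7%. Its highest member in all 15 mice, let-7f-5p, gave 31.0% of the family. The less abundant members let-7b-5p (7930 ± 2812 CPM), let-7d-5p (3989 ± 1378 CPM), let-7e-5p (2496 ± 485 CPM) and miR-98-5p (651 ± 214 CPM) followed, and let-7k (11.5 ± 4.84 CPM) and miR-1961 (0.769 ± 0.294 CPM) were the last of the 11.

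The other large families rested mainly on 1 member. The family ACCCGUA (miR-99a, miR-100 and miR-99b) held 10.0% ± 1.27 of the counts, of which 88.3% came from miR-99a-5p, and miR-100-5p had 6096 ± 685 CPM. Single-member families followed with miR-127-3p at 8.42% ± 2.92 and miR-9-5p at 7.01% ± 1.03. The family CAGUGCA (miR-148a, miR-148b and miR-152) held 4.97% ± 3.58, of which 96.0% came from miR-148a-3p, and ranged from 1.86 to 13.6% between mice, with a mean of 3.83% without mice 4 and 5. The family of miR-26a and miR-26b held 3.93% ± 1.47, from 1.30 to 5.67%, and 4.31% without mice 4 and 5. The families of miR-218-5p (2.39% ± 0.666), miR-7 (2.24% ± 0.454) and miR-381-3p (1.98% ± 0.769) completed the 10. This order covers matched sequences only. miR-30d-5p and miR-30b-5p are among the unmatched, and the 5 miRNAs named miR-30a-5p to miR-30e-5p together held 3.31% ± 0.776, more than the family of miR-218-5p. Between mice, the let-7 share varied by 1.12 percentage points (SD) although its members lay at both ends of the shared axis, and the share of miR-148 varied by 3.58.

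**Figure D3:**
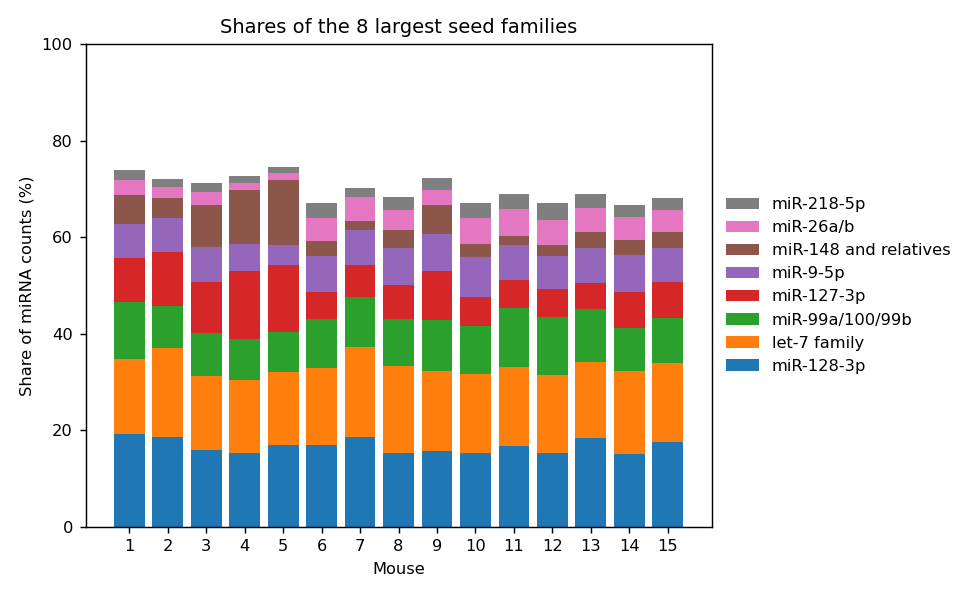
Shares of all miRNA counts (percent, from 0) taken by the 8 largest seed families in each of 15 mice, as stacked bars. The segments of miR-128-3p and of let-7 keep a similar height in every mouse, between 15.1 and 19.2%, while the segment of miR-148 and its relatives grows to 13.6% in mouse 5.

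By genomic position, 1175 of 1234 hairpins were placed and formed 78 clusters, in which successive starts on a strand lay within 10 kb of each other. The 492 miRNAs read from clustered hairpins only held 33.8% ± 1.20 of the counts, and 1324 miRNAs from single hairpins held 19.9% ± 3.06. The largest share, 46.2% ± 3.88, belonged to 85 miRNAs with several precursors, such as miR-128-3p, miR-9-5p and let-7f-5p. Their counts cannot be divided among their loci, and they were put in no cluster.

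The first and the third cluster by share lie in the imprinted Dlk1-Dio3 region of distal chromosome 12, where the miRNAs are expressed from the maternal chromosome. The first of all, at chr12:109563692-109595388 on the plus strand, comprised 14 hairpins and held 9.96% ± 2.64 of the counts (9.20% without mice 4 and 5), of which 84.5% came from miR-127-3p. Its other members included miR-434-5p, miR-434-3p (2620 ± 1404 CPM) and miR-433-3p, and some of its hairpins lie in exons of the long noncoding RNA Meg3. The other, at chr12:109709060-109747960 on the same strand, was the larger by members, with 38 hairpins and 75 mature miRNAs, and held 4.73% ± 0.817. There miR-381-3p gave 41.7%, followed by miR-379-5p, miR-541-5p, miR-543-3p and miR-411-5p, and part of its hairpins overlap the noncoding RNA Mirg. All miRNAs assigned to chromosome 12 together held 15.4% ± 3.48 of the counts, from 11.8 over a median of 13.9 to 21.7%.

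Between them in share stood the pair of Mir99a and Mirlet7c-1 in an intron of Mir99ahg, at chr16:77598936-77599750, with 8.86% ± 1.44, nearly all of it miR-99a-5p, since let-7c-5p has a second locus. The pair of Mir30d and Mir30b on chromosome 15 held 1.75% ± 0.338, of which 98.3% came from miR-30d-5p. A cluster in the protein-coding gene Spaca6 on chromosome 17 held 1.44% ± 0.195 over its 6 mature miRNAs, mainly miR-125a-5p (5999 ± 2545 CPM), miR-99b-5p (5631 ± 2344 CPM) and let-7e-5p. The remaining clusters of the 10 were led by miR-29a-3p, let-7b-5p, miR-27b-3p, miR-143-3p and miR-100-5p and held between 0.610 and 0.881% each. If miRNAs with several precursors were put in the cluster of their most abundant precursor, the share of the let-7b-5p cluster would be 3.51% instead of 0.817%, because let-7c-5p would join it.

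Arm use was tested within each mouse, so that library size cancels except where an arm had few or no counts. For 221 hairpins with a summed mean of at least 10 CPM and both arms listed, the log2 ratio of the 5p to the 3p count, with 0.5 added to each, was compared with 0 by an exact sign-flip permutation test over 15 mice, with Benjamini-Hochberg adjustment and a threshold of 0.05. A 5p excess was called for 109 hairpins (49.3%) and a 3p excess for 105 (47.5%), so both directions were nearly equally frequent, and 7 hairpins were not called. The smallest p this design can give is 6.1e-05, with an adjusted p of 6.85e-05. The 5p arm was higher in all 15 mice for 102 hairpins, the 3p arm for 95, and 24 were mixed. Hairpins whose arms are listed under different sets of precursors could not be paired, which left out 9 of the 20 most abundant miRNAs, miR-128-3p among them.

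In most hairpins, 1 arm held at least 90% of the arm counts. The major arm held at least 99% of the arm counts in 97 hairpins, between 90 and 99% in 59 and less than 90% in 65, among them 32 with less than 75%. Over all of these hairpins, the 5p arms gave 56.7% of the counts.

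Of the hairpins tested, the 5 most abundant with a 5p excess were miR-99a, miR-9, let-7i, let-7g and miR-30d. For miR-99a the log2 ratio was 15.24 ± 0.91, with the 3p arm at 1 to 66 counts per library. The let-7i ratio was 12.57 ± 1.03 and the let-7g ratio 14.13 ± 0.70. In let-7g the 3p arm had 0 counts in the lowest library and a median of 17, so its ratio depends on the count added. The miR-30d ratio was 9.77 ± 0.26. miR-9 was less one-sided, with a log2 ratio of 4.23 ± 0.78, because its 3p arm, which is itself a functional miRNA in neurons, reached 4329 ± 2130 CPM, from 1126 over a median of 5157 to 7136. In each of these 5 hairpins the 5p arm was higher in 15 of 15 mice, with an adjusted p of 6.85e-05.

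Likewise, the 5 most abundant with a 3p excess were miR-127, miR-148a, miR-381, miR-29a and miR-126a, each with the 3p arm higher in 15 of 15 mice and an adjusted p of 6.85e-05. The log2 ratio was -6.47 ± 0.51 for miR-127 and -11.22 ± 0.63 for miR-148a. It was -9.93 ± 0.34 for miR-29a and -6.17 ± 0.71 for miR-126a, whose 5p arm had 142 ± 80.7 CPM. For miR-381 it was -14.49 ± 1.61, with a median of 10 counts of the 5p arm and 3 mice at or under 3 counts, so its size is uncertain while its direction was not mixed.

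The 10 hairpins nearest to equal use included the only 7 that were not called. The most abundant was miR-132, a hairpin induced by neuronal activity and known to promote dendrite growth. Its 5p arm had 1761 ± 854 CPM and its 3p arm 1648 ± 419 CPM, with a log2 ratio of -0.01 ± 0.39 (adjusted p = 0.906, exact sign-flip permutation test) that ranged from -0.65 in mouse 4 over a median of -0.05 to 0.56 in mouse 11. The 5p arm was the higher one in 7 mice and the 3p arm in 8. miR-195a changed its leading arm with the shared axis: the log2 ratio was -2.51 in mouse 4, -2.41 in mouse 5 and between -1.76 and -1.17 in mice 1, 2, 3 and 9, but between -0.03 and 1.31 in the other 9 mice (mean -0.25 ± 1.36, adjusted p = 0.481, exact sign-flip permutation test). The order was opposite for miR-380, at 2.20 in mouse 4 and -1.05 in mouse 11.

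The other hairpins not called were miR-3068, miR-376a, miR-574 and miR-350, with mean log2 ratios from -0.49 to 0.41 and SDs from 0.34 to 1.22. The other 3 hairpins near equal use did pass the test. These were miR-485 (0.28 ± 0.31, 5p higher in 12 of 15 mice, adjusted p = 0.00508), miR-136 (-0.31 ± 0.46, 3p higher in 12 of 15, adjusted p = 0.0242) and miR-377 (0.43 ± 0.63, 5p higher in 10 of 15, adjusted p = 0.0212), all by the exact sign-flip permutation test.

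The ratio of the arms differed between mice. For hairpins with a minor arm near 0 counts, the count added and the depth set part of this range, so it is given for the 81 of 221 hairpins whose minor arm had a mean of at least 10 CPM. Their median SD of the log2 ratio was 0.63, and in 41 the highest and lowest mice were more than 2 apart on the log2 scale. The ratio correlated with the spike-in axis with a size of at least 0.8 in 46 of them, 24 positive and 22 negative. For miR-434, the ratio was 3.45 in mouse 4 and 3.04 in mouse 5, against 1.04 in mouse 11. Leaving out mice 4 and 5 gave a mean ratio of 1.70 for miR-434 and of -6.31 for miR-127.

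**Figure D4:**
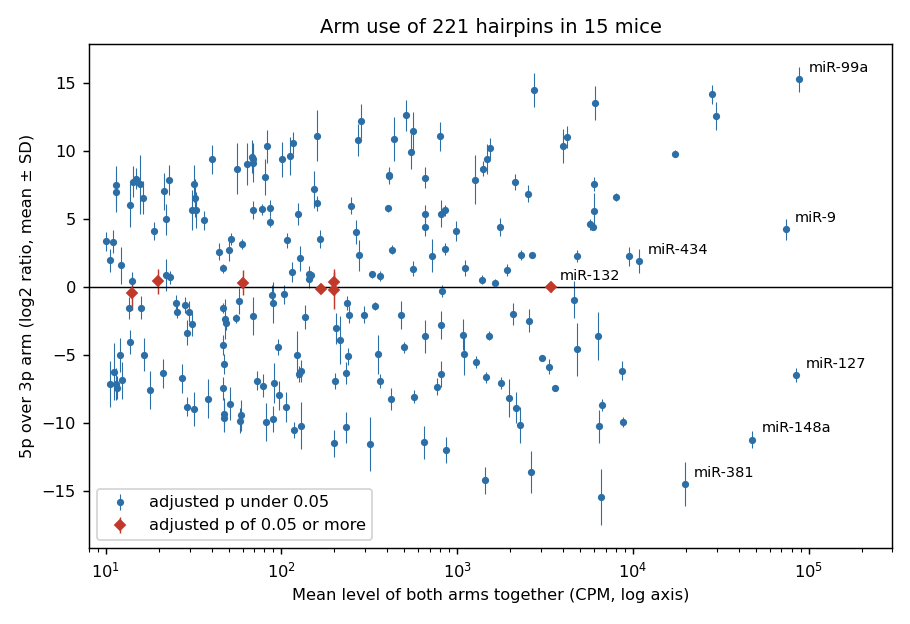
Mean log2 ratio of the 5p to the 3p arm (vertical, error bars SD over 15 mice) against the mean level of both arms in CPM (horizontal, log axis) for 221 hairpins. Points above and below the line at 0 are nearly equally frequent (109 and 105 called), and the 7 hairpins not called, in red, include the abundant miR-132.

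Spread between mice was measured by the coefficient of variation (CV, SD over mean) of the same 195 miRNAs. The median CV was 32.9%, and 26.2% without mice 4 and 5. Counting error alone would give a median CV of 1.76% and at most 7.61%, so the spread was larger than counting error. A CV above 50% was found for 35 miRNAs and one below 20% for 39. The median SD of log2 levels was 0.51, and 0.24 after a straight line on the spike-in axis was removed. That line carried more than 50% of the variance for 142 of the 195 miRNAs (median 76.8%). Within the 9 mice above 0 on the oligo axis the median CV was 15.7%, and within the 6 mice below 0 it was 27.9%.

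On the CPM scale, the steadiest miRNA was also the most abundant, miR-128-3p, with a CV of 8.66%. On this scale the spike-in axis carried only 0.0565% of its variance. miR-128-3p itself gives 16.7% of the counts to which CPM are scaled. The factors of TMM, another scaling of the libraries, ran from 0.711 in mouse 5 to 1.18 in mouse 8. The CV of miR-128-3p on that scale is not given here. On the CPM scale, miR-128-3p was followed by miR-330-5p (10.2%), miR-100-5p (11.2%), let-7j (11.6%), let-7i-5p (11.8%), miR-140-3p (12.4%), miR-300-3p (12.6%), miR-541-5p (12.6%), miR-423-3p (12.6%) and miR-361-3p (13.1%). Their levels ranged from 246 CPM for miR-423-3p upwards, so steadiness was not confined to the most abundant miRNAs.

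The largest CV was that of miR-34c-5p, at 108%, and it rested on mouse 8, without which it was 35.2%. miR-34c-5p, a miRNA of ciliated cells that has been linked to hippocampal memory, stood at 750 CPM in mouse 8 and between 51.4 and 185 CPM in the other 14 mice, with a median of 119. The axis carried 20.1% of its variance. The other products of the miR-34b/c locus, looked at after this value was seen, were also highest in mouse 8: miR-34b-5p at 155 CPM (at most 44.4 in the others), miR-34b-3p at 70.6 CPM (at most 18.6) and miR-34c-3p at 10.6 CPM (at most 3.01). miR-449a-5p, of the same miRNA family, was at 0.171 CPM in that mouse, from 1 count.

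The next 9 CVs, from 77.0 to 65.2%, belonged to miRNAs that lay at either end of the shared axis. Highest in mice 4 and 5 were miR-151-3p (17685 and 14162 CPM, median of all mice 3568), miR-708-3p (11370 and 10067 CPM, median 2944), miR-148a-3p and miR-1964-3p, and miR-182-5p was highest in mouse 4 at 383 CPM (median 73.4). Lowest there were miR-369-3p (10.4 and 11.1 CPM, median 181), miR-335-5p (13.9 and 11.5 CPM, median 106), miR-30b-5p (43.7 and 24.0 CPM, median 247) and miR-135a-5p. The axis carried between 78.6 and 95.8% of the variance of these 9 miRNAs. Without mice 4 and 5 their CVs ranged from 46.1 to 63.3%.

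After the line on the axis, other miRNAs led the spread. The largest remaining SD of log2 levels was that of miR-151-5p, at 0.83, with levels from 89.3 CPM in mouse 9 to 977 in mouse 8. miR-34c-5p (0.83), miR-29b-3p (0.79) and miR-338-3p (0.59) followed. miR-101a-3p, miR-1a-3p and miR-143-3p had remaining SDs of 0.54, 0.51 and 0.49, and the axis carried at most 3.08% of their variance.

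**Figure D5:**
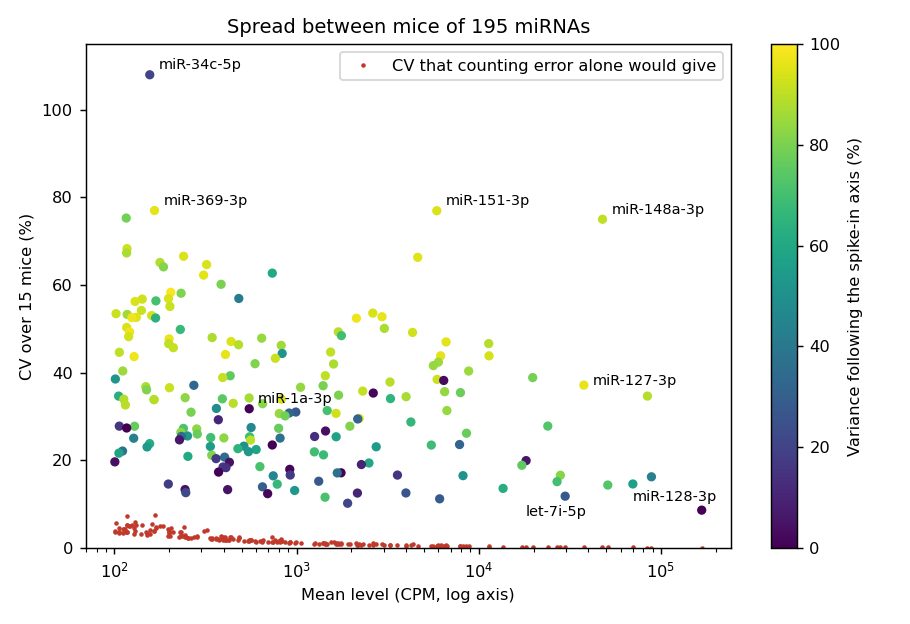
CV over 15 mice in percent (vertical) against the mean level in CPM (horizontal, log axis) for 195 miRNAs, coloured by the percentage of the variance of log2 levels that follows the spike-in axis. Red dots show the CV that counting error alone would give, at most 7.61%, and miR-34c-5p stands highest at 108% and miR-128-3p lowest at 8.66%.

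The labelled tissue was checked against 13 lists of marker miRNAs. The 9 neuronal miRNAs summed to 258352 ± 15723 CPM, from 233499 to 280631, most of it miR-128-3p and miR-9-5p. miR-124-3p, the best known miRNA of neurons, stood only at rank 43 with 2943 ± 1553 CPM, from 670 in mouse 5 over a median of 3301 to 5211 in mouse 11. The further neuronal markers were miR-129-5p, miR-9-3p and miR-132-3p above 1000 CPM, miR-138-5p at 480 ± 223, miR-137-3p at 186 ± 119 and miR-212-3p at 62.6 ± 33.8 CPM.

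The lists of oligodendrocytes, of microglia and leukocytes and of vascular cells each summed to less than the neuronal list. However, miR-126a-3p and miR-143-3p each had a higher mean than miR-124-3p. No list covered astrocytes, so these sums do not compare neurons with glia as a whole. Of the oligodendrocyte markers, miR-219a-2-3p had 990 ± 307 and miR-338-3p 168 ± 88.3 CPM, while miR-219a-5p had 3.63 ± 2.25. The endothelial miR-126a-3p and the smooth muscle and pericyte marker miR-143-3p (6418 ± 2455 CPM) were among the 30 most abundant miRNAs, and miR-145a-5p, made from the same cluster as miR-143-3p, had 97.1 ± 60.3 CPM. Of the microglial and leukocyte markers, miR-146a-5p had 283 ± 76.9 CPM, miR-142a-5p 37.8 ± 16.1, miR-142a-3p 6.56 ± 3.08, miR-155-5p 2.61 ± 1.09 and miR-223-3p 1.01 ± 0.666.

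Markers of tissue next to CA1 and of blood were also found, with each of these miRNAs counted in all 15 libraries except miR-144-3p, which was at 0 in 1 mouse. Of the choroid plexus list, miR-204-5p had 833 ± 370 CPM, miR-211-5p 40.2 ± 14.6, miR-1264-3p 22.8 ± 13.8 and miR-448-3p 8.05 ± 3.12. The list summed to between 354 and 2050 CPM, with the highest value in mouse 8. The red blood cell markers miR-451a and miR-486a-5p had 336 ± 78.0 and 395 ± 73.0 CPM, with miR-144-5p at 4.17 ± 2.16 and miR-144-3p at 1.68 ± 1.09, and the list summed to between 501 and 921 CPM.

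Markers of other organs were low or absent, with some exceptions. miR-208a-3p, which is specific to heart muscle, and miR-196b-5p of the Hox clusters were at 0 in all 15 mice, which allows at most 0.192 to 1.44 CPM per library. miR-196a-5p was at 0 in 14 mice, miR-208b-3p in 13 and the pancreatic miR-216a-5p in 10. The liver miRNA miR-122-5p had 14.3 ± 4.40 CPM, miR-133a-3p 11.8 ± 8.89, miR-499-5p 11.4 ± 5.16, miR-206-3p 7.58 ± 2.60 and miR-217-5p 1.26 ± 0.540. miR-1a-3p, a miRNA of heart and skeletal muscle, had 549 ± 175 CPM and gave most of the 580 ± 177 CPM of its list, in which the highest value of any other member was 27.0 CPM, for miR-133a-3p in mouse 10. The epithelial miR-200 family was detected with miR-200b-3p at 78.5 ± 47.9 and miR-200a-3p at 54.2 ± 30.8 CPM, then miR-429-3p at 10.5 ± 7.76, miR-200c-3p at 2.44 ± 1.47 and miR-141-3p at 0.455 ± 0.383. miR-182-5p, miR-183-5p and miR-96-5p, known from sensory cells, had 116 ± 87.4, 68.5 ± 39.5 and 4.10 ± 1.76 CPM. miR-10a-5p had 101 ± 39.0, miR-10b-5p 22.9 ± 26.4 and miR-375-3p 57.7 ± 31.8 CPM. In bulk tissue, the number of cells of a type and the amount of a miRNA per cell cannot be told apart.

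Whether marker pairs varied together across the 15 mice was tested in a family of 21 relations, 8 pairs and 13 list sums against log10 of the library's miRNA counts. Of these, 8 passed an adjusted p of 0.05 by Pearson's r and 2 by Spearman's rho, both of the pairs described first. The closest pair was miR-204-5p with miR-211-5p of the choroid plexus (r = 0.979, permutation p = 1e-05, adjusted p = 0.000105; rho = 0.957, permutation p = 1e-05), with r = 0.962 without the mice farthest from the median. It held within the 6 mice below 0 on the oligo axis (r = 0.942, exact permutation p = 0.00139) and within the 9 above it (r = 0.957, exact permutation p = 0.00195). Both miRNAs were highest in mouse 8, at 1927 and 81.8 CPM. Whether reads of 1 of them were partly counted as the other was not tested.

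The pair of miR-132-3p and miR-212-3p, which is made from 1 primary transcript, gave r = 0.889 (permutation p = 1e-05, adjusted p = 0.000105) and rho = 0.900 (permutation p = 4e-05). Within the 9 mice above 0, r was 0.942 (exact permutation p = 0.00103), and within the 6 below it, 0.787 (exact permutation p = 0.00833), with mouse 12 highest for both miRNAs at 2737 and 139 CPM. By rank, rho was 0.833 above 0 (exact permutation p = 0.00827, adjusted p = 0.0551) and 0.771 below it (exact permutation p = 0.103, adjusted p = 0.294). After the line on the spike-in axis was removed from both, r was 0.780 (permutation test, adjusted p = 0.00812) and rho 0.529 (permutation test, adjusted p = 0.192). On TMM-scaled levels the r of this pair was 0.513 (permutation test, adjusted p = 0.176).

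Other pairs depended on a few mice or on the axis. miR-124-3p with miR-9-5p gave r = 0.723 (permutation p = 0.00162, adjusted p = 0.00850; rho = 0.464, permutation p = 0.0827), but 0.216 without mice 4 and 5 and 0.134 within the 9 mice above 0, so the relation rested on the low end of the axis. miR-219a-2-3p with miR-338-3p gave r = 0.643 (permutation p = 0.0103, adjusted p = 0.0308; rho = 0.575, permutation p = 0.0265, adjusted p = 0.111), and 0.353 without mice 4 and 5. miR-143-3p with miR-145a-5p gave r = 0.198 (permutation p = 0.477, adjusted p = 0.626) and rho = -0.004 (permutation p = 0.995). After the line on the axis was removed from both, r was 0.854 (permutation p = 9e-05, adjusted p = 0.000945), and 0.685 without the mice farthest from the median. With the line kept, r was 0.529 within the 6 mice below 0 (exact permutation test, adjusted p = 0.371). Within the 9 above 0 it was 0.710 (exact permutation test, adjusted p = 0.0938). For the red blood cell pairs, miR-451a with miR-144-3p gave r = 0.406 (permutation p = 0.131, adjusted p = 0.196; rho = 0.286, permutation p = 0.299) and with miR-486a-5p r = -0.0722 (permutation p = 0.799, adjusted p = 0.839; rho = -0.157, permutation p = 0.575), and neither passed the threshold. For miR-448-3p with miR-1264-3p, r was 0.545 (permutation p = 0.0361, adjusted p = 0.0758; rho = 0.496, permutation p = 0.0638).

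Of the 13 list sums, those of neurons (r = 0.721), endothelium (r = 0.741), microglia and leukocytes (r = 0.806) and sensory cells (r = -0.620) moved with library size by Pearson's r, with permutation p-values of 0.00121, 0.00407, 0.00246 and 0.0142 and adjusted ones of 0.00847, 0.0142, 0.0103 and 0.0372. Their rho was 0.646, 0.532, 0.436 and -0.582, with adjusted permutation p-values from 0.0758 to 0.188. Without mice 4 and 5, r was 0.407, 0.171, 0.112 and -0.292, and none of the 4 passed the threshold. After the line on the spike-in axis was removed from both measures, the relation of the neuronal sum did pass it (r = 0.672, permutation p = 0.00621, adjusted p = 0.0326; rho = 0.668, adjusted p = 0.0482), while r was 0.0580, 0.205 and 0.278 for the other lists in the same order. With TMM-scaled levels the r of the neuronal sum was -0.476.

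The order of abundance was similar in the other groups of the series, given here only as a description. miR-128-3p was the most abundant miRNA in all of them. Of the 20 most abundant miRNAs, 20 were also among the 20 most abundant in the 11 CamKIIδC TG mice at 6 months, 18 in the 9 TG mice at 3 months and 17 in the 5 wild-type control mice at 3 months. Across the 366 miRNAs at or above a mean of 10 CPM here, Spearman's rho of the mean levels was 0.998, 0.985 and 0.990 in the same order. The genotype field and the title of the sample differ for wild-type control mice 1 and 2 at 3 months, and the title was used.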

How the data were processed

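The authors converted base calls with bcl2fastq (2.20.2), checked reads with FastQC (0.11.5), trimmed 3′ adapters with cutadapt (2.8 in the submitters' processing notes), aligned them to mm10 with mirdeep2 and annotated miRNAs with miRBase. The deposited counts are raw reads, 1 row for every mature form on every precursor (2128 rows of miRNAs, and 52 of UniSp spike-in oligos). They also deposited RPM values, scaled by the total of each library including the spike-ins, which were used here only as an alternative.

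From the counts, 1 row per mature miRNA was kept (85 miRNAs have several precursors), spike-ins were left out, and CPM were computed in Python (3.11.15). Principal axes used log2(CPM + 0.5). Arm ratios were tested by exact sign flips (32768 per hairpin) and correlations with 100000 permutations, or all of them within fewer than 10 mice. All tests were two-sided with Benjamini-Hochberg adjustment. TMM factors came from edgeR (4.0.16, R 4.3.3). In simulated data, the arm test called 195 of 200 changed and 5 of 200 equal pairs. The simulated pairs had no shared axis, few if any arms near 0 counts, and less noise than the real ratios (median SD 0.85). These rates therefore need not hold for the real hairpins. No pair of libraries was a copy of another (chi-square over degrees of freedom of at least 108).

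The miRNAs named are the 20 most abundant, the 10 largest families and clusters, the 5 most abundant hairpins with each arm excess and the 10 nearest to equal use, the 10 largest and smallest CVs, and every marker. These lists were chosen with earlier results of these data known. The analyses by the spike-in axis, the split at 0 on it and the omission of mice 4 and 5 were chosen after seeing the data. The labels gave no batch. Other alternatives were counts summed over precursors, pooled or median shares, other thresholds, seeds and cluster distances, and each mouse left out in turn.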

Additional observations from a re-analysis of the deposited data

How the results depend on the processing

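Of 308 alternative values, 269 were counted as unchanged, among them all values of the 4 results recomputed with each mouse left out in turn. For counts this meant staying within 1.5 times, and for correlations staying on the same side of the threshold. Shares counted as unchanged stayed within their SD over mice, as did miR-127-3p at 5.80% in place of 8.42% (SD 2.92). Correlations past the threshold in neither form were counted as unchanged even where their sign turned. With TMM, miR-451a with miR-144-3p went from 0.406 to -0.151, and library total with red blood cells from 0.135 to -0.479. Requiring 10 counts in at least 8 mice instead of all 15 gave 606 miRNAs in place of 357. Summing counts over precursors, which counts a read once per precursor, gave miR-128-3p and its family 18.5% and miR-9-5p 14.2%. The same setting lowered the family of miR-99a-5p from 10.0 to 6.81% and miR-127-3p from 8.42 to 5.80%. miR-9-5p then stood above both, so the order of these families depended on this choice. With at least 100 CPM for both arms together, 69 hairpins had a 5p and 60 a 3p excess of 133 tested, and with at least 1 CPM 154 had a 5p and 175 a 3p excess of 344 tested, so that 3p excesses were then the more frequent, since other numbers of hairpins enter. With miRNAs of several precursors put in a cluster, the let-7b-5p cluster held 3.51%. The median SD of log2 levels fell from 0.51 to 0.24 after the line on the spike-in axis. The number of marker relations past the threshold was 8, against 4 with TMM-scaled levels, 2 without the smallest library, 2 without the 2 smallest and 4 after the line on the axis. Of the relations first past the threshold, miR-124-3p with miR-9-5p turned to an r of -0.30 with TMM and -0.11 after the line. Library total with neurons turned to -0.48 with TMM, and library total with sensory cells to 0.28 after the line. All of these turned values were past no threshold, and the cause was not tested. Depth limits miRNAs near 0.192 to 1.44 CPM and the minor arms with few counts. No paired analysis was possible because only 1 group of mice was analysed and the ratio of arms is already taken within each mouse.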

Other observations

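Some markers outside the neuronal list were high in mouse 6 or 8. miR-143-3p stood at 13496 CPM in mouse 6 and 9424 in mouse 8, against at most 7425 in the other 13 mice, and the spike-in axis carried 3.08% of its variance. miR-10b-5p, of the Hox clusters, stood at 86.8 CPM in mouse 6 and 83.8 in mouse 8, against at most 28.8 in the others. In mouse 8, miR-375-3p was also highest, at 165 CPM against at most 73.6 in the others, together with miR-204-5p, miR-211-5p and miR-448-3p of the choroid plexus list and the miR-34b/c products given above. Not all members of the same lists followed. In mouse 8, miR-1264-3p of the choroid plexus list stood at 25.4 CPM, the median of all mice. miR-10a-5p stood at 93.1 CPM in mouse 6 and 92.1 in mouse 8 (median 92.1). miR-145a-5p was highest in mouse 6, at 260 CPM, but stood at 107 in mouse 8 (median 104). What the high values share was not tested. The epithelial miR-200a-3p was at its lowest in mouse 8 (19.7 CPM) and at its highest in mouse 6 (118 CPM).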
